A study of Mus musculus with 14 samples.

Results

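The genes described here encode the endosomal and lysosomal machinery that cuts proteins into peptides in antigen-presenting cells. They were chosen by gene symbol, and all 10 rows were found among the 23420 symbols of the count table: the cathepsins Ctsb, Ctsc, Ctsd, Ctsh, Ctsl, Ctss and Ctsz, the asparaginyl endopeptidase legumain (Lgmn), the thiol reductase GILT (Ifi30) and the protease inhibitor cystatin C (Cst3). All 10 had enough counts to be tested. The rule names symbols and uses no measured value, but the set was chosen with earlier results of these data known.

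The libraries come from LIPSTIC, a method that marks contacts between cells: the enzyme sortase A, displayed on T cells, joins biotinylated peptide to a pentaglycine tag (G5) on cells they touch. In both biotin groups, Cd40G5/G5 recipient mice (genotype given as G5-Cd40+/+, strain C57BL/6) received Cd40G5/G5 dendritic cells (DCs) pulsed with the ovalbumin peptide OVA323-339, and 18 hours later OVA-specific CD4 T cells of the OT-II line (CD40lgSrtA/Y CD4-Cre), in which the sortase is carried on CD40 ligand and Cre is driven in CD4-expressing cells. Endogenous DCs of the popliteal lymph node, MHC class II high, CD11c and CD11b positive and XCR1 negative, were sorted 48 hours after T cell transfer into a biotin-positive fraction with 6 libraries and a biotin-negative fraction with 6. The control group, 2 libraries of Cd40-null DCs (Cd40-/-, C57BL/6), passed the same gate without the biotin split, in mice that received WT DCs and WT OT-II T cells. Genotype and transferred cells therefore differ together between the biotin groups and the Cd40-null group. All groups had the peptide-pulsed DCs (5e+05 per footpad), the T cells (3e+05 intravenously) and the biotin substrate (300 nmol per footpad at 46 hours). Each library holds polyadenylated RNA of 150 cells, made with Smart-seq2. The labels do not say how many mice stand behind a library, so the p-values reflect library-to-library spread, which may be technical.

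Class II antigen processing depends on a chain of acid proteases. Legumain and the aspartic protease cathepsin D make early cuts in taken-up proteins and in other pro-enzymes, papain-family cysteine cathepsins trim the products, and cathepsin S removes the last piece of the invariant chain (Cd74) from class II molecules in DCs. GILT reduces disulfide bonds so that folded proteins can be cut, and cystatins block papain-family proteases. Maturing DCs are known to change endosomal acidity and the balance of these enzymes.

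Total counts ran from 1.45e+07 to 3.33e+07 per library. Levels are given as CPM (counts relative to the library total, after TMM scaling), differences are log2 fold changes from edgeR's quasi-likelihood test over 14217 genes with standard errors (SE), and a gene is called at a Benjamini-Hochberg adjusted p under 0.05. Cd40 itself had a mean of 1062 ± 163 CPM (SD, n = 6) in the biotin-positive and 511 ± 78.7 CPM (SD, n = 6) in the biotin-negative group, against 74.1 and 53.3 CPM in the Cd40-null libraries. Of the 12 DC genes, Fscn1 (the actin bundler of mature DCs) and Ccl22 (a chemokine of mature DCs) rose, Dpp4 and Itgax fell, and 8 were not called by edgeR between the biotin groups. Fscn1 averaged 7169.5 ± 932 CPM in biotin-positive libraries, against 3184 ± 376 CPM in biotin-negative ones (adjusted p = 6.85e-06). Ccl22 averaged 5524 ± 1399 CPM in biotin-positive libraries, against 1885 ± 283 CPM in biotin-negative ones (adjusted p = 1.13e-05). The 12 genes summed to 16899 to 21406 CPM in biotin-positive, 9935 to 12419 CPM in biotin-negative, and 9750.4 and 11505 CPM in Cd40-null libraries. The higher sum in biotin-positive libraries rests on Fscn1 and Ccl22. The mean log2 CPM of the 12 genes was 8.35, 8.48 and 8.23 in biotin-positive, biotin-negative and Cd40-null libraries. Flt3 (the DC growth factor receptor) averaged 1014, 849 and 828 CPM and Zbtb46 (a transcription factor of conventional DCs) 189, 161 and 182 CPM in biotin-positive, biotin-negative and Cd40-null libraries. Itgax (CD11c) fell to 55.5 ± 5.71 CPM in biotin-positive libraries, against 139 ± 55.4 CPM in biotin-negative ones (adjusted p = 0.00069), and Dpp4 to 73.1 ± 27.9 CPM, against 253 ± 69.6 CPM (adjusted p = 0.000132). Itgam (CD11b), a marker of the sorting gate, fell to 1.91 CPM in biotin-positive libraries, against 25.3 CPM in biotin-negative ones (adjusted p = 0.0145), and averaged 14.7 CPM in Cd40-null libraries. Xcr1, which the gate excludes, averaged 2.001, 3.09 and 2.15 CPM in biotin-positive, biotin-negative and Cd40-null libraries.

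Several features of the libraries move with the biotin label. Biotin-positive libraries held counts for 13090 to 13455 genes, against 14225 to 15742 in biotin-negative and 13113 and 13596 in Cd40-null libraries. Rn45s, a ribosomal RNA precursor, took 15.05% to 19.5% of counts in biotin-positive libraries, 19.6% to 21.5% in biotin-negative and 18.3% and 20.7% in Cd40-null libraries. The 22 monocyte and macrophage markers summed to 185 to 375 CPM in biotin-positive libraries, 399 to 1873 in biotin-negative and 542 to 812 in Cd40-null libraries. Of these markers 13 of 22 fell and 0 rose between the biotin groups, and Mrc1 was at 0 in biotin-positive libraries and, with Mertk, in Cd40-null ones. Langerhans cell markers summed to 336 to 513, 59.2 to 162 and 133 to 165 CPM in biotin-positive, biotin-negative and Cd40-null libraries, with Cd207, Epcam and Cldn1 (3 of 4 tested) higher in biotin-positive than in biotin-negative libraries and Krt14 at 0 in every group. The sums of 4 other lists are given here in CPM for biotin-positive, biotin-negative and Cd40-null libraries. Each rests mostly on 1 gene, except the plasmacytoid DC sum in biotin-positive libraries. For cDC1 the sums were 325 to 565, 119 to 267 and 340 to 345, of which Irf8, which rose, averaged 437, 191 and 333. For plasmacytoid DCs they were 82.8 to 199, 232 to 531 and 329 to 382, of which Spib, which fell, averaged 74.4, 290.3 and 249.6. In biotin-positive libraries Tcf4 averaged 42.6 and Bst2 36.7 beside Spib. The other 6 tested plasmacytoid genes were not called, 4 of them with a log2 fold change above 0 between the biotin groups. For NK cells the sums were 3.55 to 11.3, 33.0 to 53.3 and 25.7 to 35.5, of which Klrd1, which fell, averaged 5.88, 36.9 and 29.7. For neutrophils they were 11.98 to 18.3, 18.05 to 28.1 and 13.01 to 17.5, of which Cxcr2, the only one tested, fell and averaged 14.0004, 22.8 and 15.2. T cell markers (16.8 to 58.2, 10.4 to 81.5 and 26.7 to 154 CPM) and B cell markers (7.29 to 88.8, 6.39 to 48.2 and 10.7 to 61.7 CPM) had 0 calls by edgeR between the biotin groups, with 4 and 0 genes under an unadjusted p of 0.05, and DESeq2 called 1 and 0 and limma voom 0 and 0 of them. Beyond the 2 covariates named with the results, the part of these differences in the protease results was not tested. In bulk libraries, fewer cells of a type and less RNA per cell cannot be told apart.

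Between biotin-positive and biotin-negative DCs, 2 of the 10 genes rose (Ctsb and Cst3), 1 fell (Ctss), and 7 were not called. Across all tested genes 7.75% were called, 3.7% higher and 4.05% lower. The members' median log2 fold change was -0.13, against -0.03 over all genes.

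**Figure D1:**
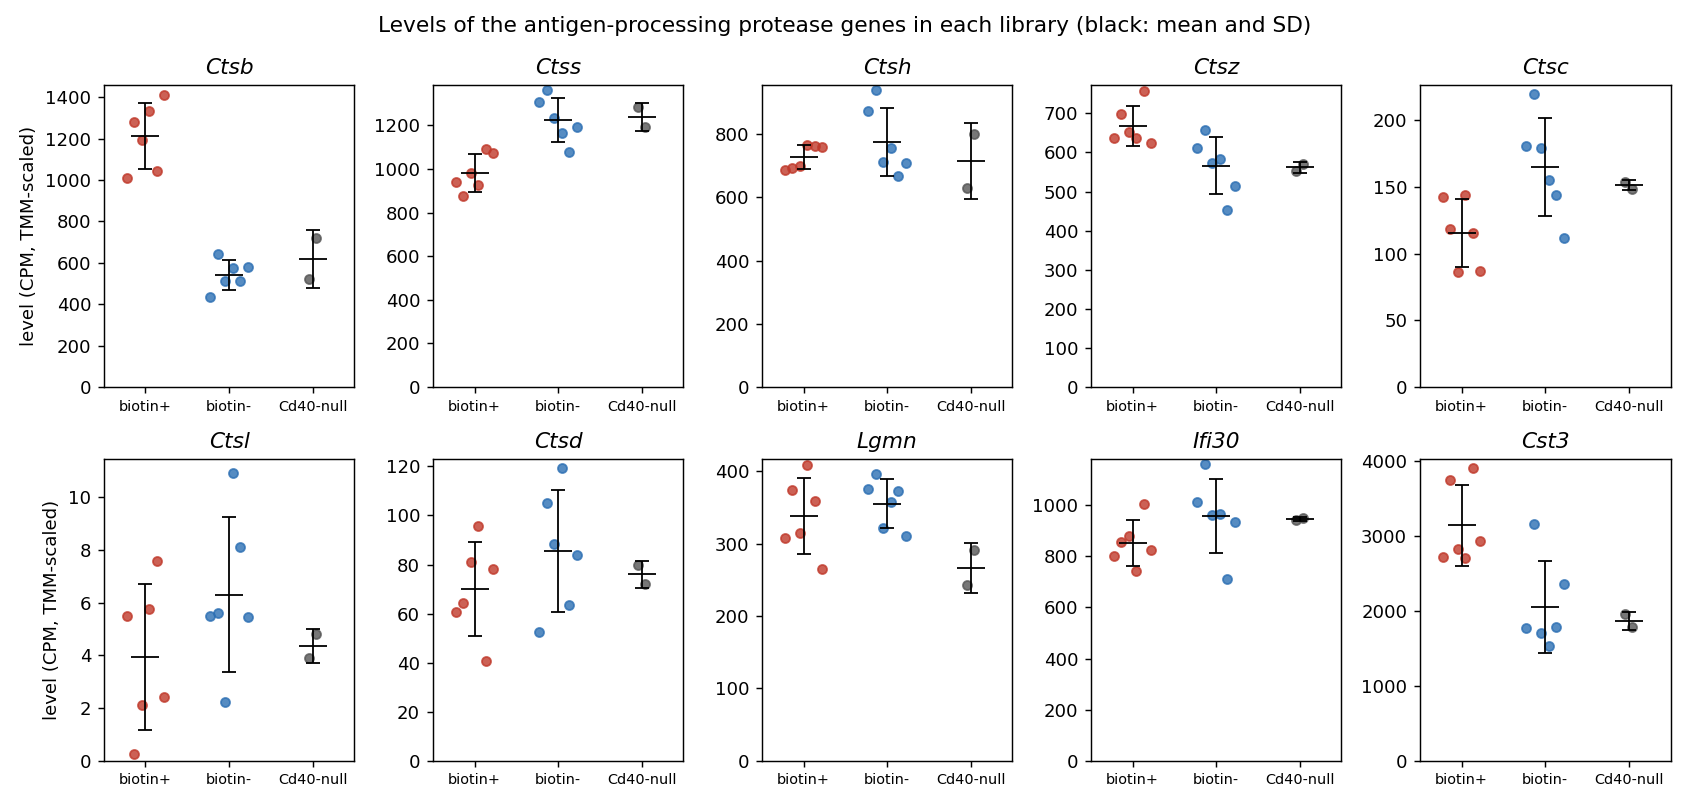
Levels of the 10 genes in each library, in TMM-scaled CPM on linear axes from 0; each point is a library, and the black marks give the mean and SD of the biotin-positive (n = 6), biotin-negative (n = 6) and Cd40-null (n = 2) groups. All 6 biotin-positive libraries lie at 1008 CPM or above for Ctsb, while no biotin-negative or Cd40-null library exceeds 718 CPM.

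Ctsb (chr14:63122462-63145923, GRCm38, plus strand) encodes cathepsin B, a cysteine protease that acts both as an endopeptidase and as a carboxydipeptidase. Its lowest, median and highest levels were 1008, 1237 and 1410.1 CPM in biotin-positive libraries, 435, 545 and 643 CPM in biotin-negative libraries, and 520.2 and 718 CPM in the Cd40-null libraries. Every biotin-positive library lay above every biotin-negative one, which held for 2.6% of tested genes, while the opposite held for 2.41%. Ctsb rose 2.23-fold (log2 1.16, SE 0.11, adjusted p = 1.41e-05), with group means of 1212 ± 161 CPM (SD, n = 6) for biotin-positive and 543 ± 72.0 CPM (SD, n = 6) for biotin-negative DCs. When detected genes per library entered the fit as a covariate, its log2 fold change was 0.71 and the call was lost (adjusted p = 0.275). That number does not overlap between the biotin groups, and with it 11 genes were called in all. With the macrophage marker level as a covariate Ctsb gave a log2 fold change of 1.53 (adjusted p = 0.00987), and 90 genes were called in all. The summed CPM of these markers does not overlap between the biotin groups either (185 to 375 against 399 to 1873). Neither fit can therefore separate its covariate from the biotin label. Of the exon bases of Ctsb, 774 (12.8%) overlap Fdft1, a squalene synthase gene on the opposite strand, and Smart-seq2 reads do not carry strand. Fdft1 was likewise higher in biotin-positive libraries, at 149 ± 31.2 CPM against 67.1 ± 19.99 CPM in the biotin-negative group (log2 1.15, SE 0.19, adjusted p = 0.00108). Fdft1 had 123 ± 2.28 CPM in Cd40-null libraries, and its log2 fold change of biotin-positive over Cd40-null was 0.28 (adjusted p = 0.730).

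Ctss (chr3:95526786-95556403, plus strand) encodes cathepsin S, the invariant-chain protease of DCs. It had 875, 961 and 1091 CPM as lowest, median and highest in biotin-positive libraries, 1079.8, 1213 and 1361 CPM in biotin-negative libraries, and 1284 and 1194 CPM in Cd40-null libraries. The biotin ranges overlap only between the highest biotin-positive and the lowest biotin-negative library. Ctss fell 1.25-fold (log2 -0.32, SE 0.08, adjusted p = 0.0169). The call was lost with detected genes (log2 -0.35, adjusted p = 0.506) and with the macrophage marker level (log2 -0.21, adjusted p = 0.790) as covariates. Both covariates move with the biotin label, so these fits cannot tell them apart from it. The sequence before the Ctss start site is shown because Ctss, a gene known to be induced by interferon, is the protease that fell. The 250 bases before its RefSeq start site (chr3:95526536-95526785, GRCm38.p6, plus strand) carry, in capitals and in this order, a TATA box TATAAA read on the opposite strand, a GC box GGGCGG and an interferon regulatory factor (IRF) element, which is GAAA, 2 bases of any kind, and GAAA.

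Ctss promoter: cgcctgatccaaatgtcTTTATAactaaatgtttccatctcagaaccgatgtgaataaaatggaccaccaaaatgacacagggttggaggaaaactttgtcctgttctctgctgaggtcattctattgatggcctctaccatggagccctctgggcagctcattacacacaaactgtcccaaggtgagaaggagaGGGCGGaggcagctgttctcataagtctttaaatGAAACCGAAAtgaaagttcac

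The IRF element starts 21 bases before the start site and is found in 3.44% of 32851 RefSeq promoters of the same length; among the 9 promoters found for 8 of the 10 genes (all but Ctsb and Ctsh), it is in 1. The other shares are 35.7% for the GC box (7 of 9), 13.6% for the TATA box (2 of 9) and 13.6% for the PU.1 core GAGGAAG (2 of 9), each searched on both strands of the 300 bases around the start site. The IRF element and the GC box were searched after the Ctss sequence had been read. A match describes letters and does not show binding.

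The other cysteine cathepsins were not called by edgeR. Ctsz (chr2:174427493-174439039, 9.35 Mb from Cd40), the carboxypeptidase cathepsin X, had 624, 644 and 757 CPM as lowest, median and highest in biotin-positive libraries, 453, 579 and 658 CPM in biotin-negative libraries, and 552 and 571 CPM in Cd40-null libraries. Its log2 fold change between the biotin groups was 0.24 (95% interval 0.04 to 0.44, adjusted p = 0.127). Ctsh, an aminopeptidase (chr9:90054152-90076089), had 687, 730.0 and 767 CPM in biotin-positive libraries, 667, 734 and 939 CPM in biotin-negative libraries, and 629.8 and 799.8 CPM in Cd40-null ones. The 95% interval of its log2 fold change between the biotin groups was -0.30 to 0.11 (adjusted p = 0.670), and the ranges overlap. Ctsc, the dipeptidyl peptidase that activates granule serine proteases (chr7:88278085-88310888), had 86.4, 117 and 144 CPM in biotin-positive libraries, 112, 167 and 219.8 CPM in biotin-negative libraries, and 154 and 149 CPM in Cd40-null ones. The log2 fold change of Ctsc was -0.51 (SE 0.16, 95% interval -0.87 to -0.15), and it missed the threshold (adjusted p = 0.0678), while DESeq2 (adjusted p = 0.0251) and limma on the deposited signal (adjusted p = 0.0489) called it. Ctsl (chr13:64359337-64370890), the cathepsin that cuts the invariant chain in thymic epithelium, was low in these cells, at 0.245, 3.95 and 7.58 CPM in the biotin-positive and 2.25, 5.55 and 10.9 CPM in biotin-negative libraries, with 3.90 and 4.80 CPM in Cd40-null libraries. Its lowest value rests on 4 counts, and the log2 fold change of -0.68 has an interval of -2.01 to 0.65 (adjusted p = 0.611). An antisense transcript shares 26.8% of the exon bases of Ctsl, so part of this low signal could not be assigned to a strand.

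The remaining members act before or beside the cysteine cathepsins. Ctsd (chr7:142375911-142388038), the aspartic cathepsin D, had 40.8, 71.4 and 95.5 CPM in biotin-positive libraries, 52.5, 86.2 and 119 CPM in biotin-negative libraries, and 79.8 and 72.2 CPM in Cd40-null libraries. Its log2 fold change was -0.29 (95% interval -0.75 to 0.18, adjusted p = 0.509), and 34.4% of its exon bases also belong to Gm49369, a gene on the same strand. Lgmn (chr12:102394084-102439813), which cuts after asparagine, had 264, 337 and 409 CPM in the biotin-positive and 310.1, 365 and 396 CPM in biotin-negative libraries, with 242 and 291 CPM in Cd40-null libraries (biotin-positive over biotin-negative log2 -0.07, 95% interval -0.31 to 0.16, adjusted p = 0.795). Ifi30 (chr8:70762774-70766663) had 743, 842 and 1006 CPM in biotin-positive libraries, 710.3, 963 and 1159 CPM in biotin-negative libraries, and 940.0 and 952 CPM in Cd40-null libraries. Its log2 fold change between the biotin groups was -0.17 (95% interval -0.39 to 0.06, adjusted p = 0.397). The biotin groups overlap for all 3 genes.

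Cst3 (chr2:148871722-148875692, 16.2 Mb from Cd40), a secreted inhibitor of papain-family proteases, had the highest level per kilobase of the 10 genes in every group. It had 2704, 2885 and 3909.6 CPM as lowest, median and highest in biotin-positive libraries, 1538, 1778 and 3164 CPM in biotin-negative libraries, and 1956 and 1782 CPM in Cd40-null libraries. A single biotin-negative library, at 3164 CPM, lies within the biotin-positive range, and the other 5 lie below it. Cst3 rose 1.53-fold (log2 0.61, SE 0.16, adjusted p = 0.0227). The adjusted p was 0.0565 without biotin-positive replicate 2, 0.0535 without biotin-negative replicate 1 and 0.0560 without biotin-negative replicate 3, so each of these libraries decides the call. With covariates, which both move with the biotin label, the adjusted p was 0.730 (detected genes, log2 0.44) and 0.315 (macrophage marker level, log2 0.98). The 250 bases before the Cst3 start site (chr2:148875513-148875762, GRCm38.p6, minus strand, written in gene direction) hold 1 GC box, in capitals, and none of the other motifs searched.

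Cst3 promoter: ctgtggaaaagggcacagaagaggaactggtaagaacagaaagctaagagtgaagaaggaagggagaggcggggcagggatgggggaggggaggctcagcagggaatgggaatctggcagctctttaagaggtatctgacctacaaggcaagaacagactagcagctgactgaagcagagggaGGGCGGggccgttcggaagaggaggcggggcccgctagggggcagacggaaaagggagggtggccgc

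**Figure D2:**
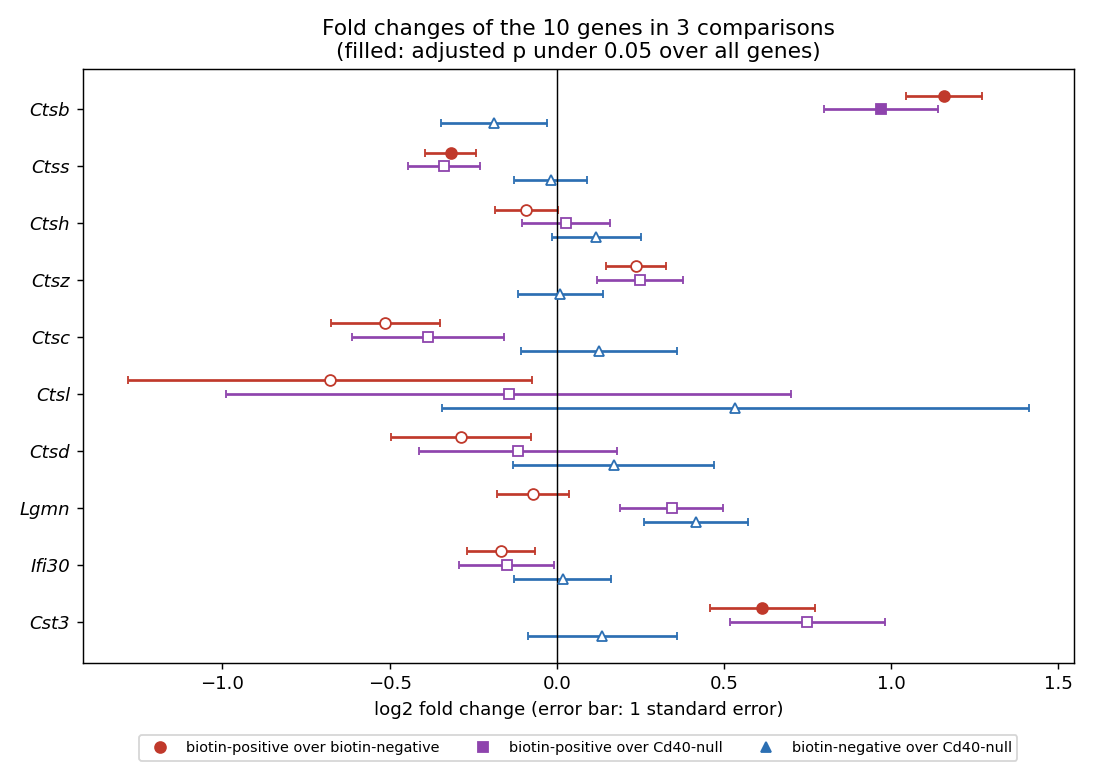
Log2 fold changes of the 10 genes in 3 comparisons, with error bars giving the SE. The comparisons are biotin-positive over biotin-negative, biotin-positive over Cd40-null and biotin-negative over Cd40-null. Filled points passed an adjusted p under 0.05. Ctsb lies at 1.16 and 0.97 in both comparisons of biotin-positive libraries and at -0.19 for biotin-negative over Cd40-null.

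Against Cd40-null libraries, 1 of the 10 genes rose in biotin-positive libraries (Ctsb), where 2.27% of all genes were called, 1.22% higher and 1.05% lower. This comparison uses the same biotin-positive libraries as the previous one. Ctsb rose 1.96-fold over the Cd40-null libraries (log2 0.97, SE 0.17, adjusted p = 0.00501). Without Cd40-null replicate 1 the log2 fold change was 0.76 and the call was lost (adjusted p = 0.155), so this call rests on that library. All biotin-positive libraries lay above both Cd40-null libraries for Ctsb, Ctsz and Cst3, and 7.81% of tested genes did so. They lay below both for Ctsc and Ctss, as did 8.07% of genes. None of these other 4 was called by edgeR. DESeq2 called Cst3 (adjusted p = 0.0168) and Ctss (adjusted p = 0.0334), as did limma voom (adjusted p = 0.0393 for Cst3 and 0.0319 for Ctss). The log2 fold change was 0.75 for Cst3 (95% interval 0.24 to 1.26, adjusted p = 0.116), 0.25 for Ctsz (95% interval -0.04 to 0.53, adjusted p = 0.424), -0.39 for Ctsc (95% interval -0.89 to 0.11, adjusted p = 0.486) and -0.34 for Ctss (95% interval -0.57 to -0.10, adjusted p = 0.131). Lgmn stood at 0.34, Ctsh at 0.03, Ctsd at -0.12, Ctsl at -0.14 and Ifi30 at -0.15 on the log2 scale, with adjusted p of 0.333 to 0.980.

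Between biotin-negative and Cd40-null libraries edgeR called 0 of the 10 genes, where 0.317% of all genes were called, 0.274% higher and 0.0422% lower. Among them 1 was under an unadjusted p of 0.05, and DESeq2 and limma voom called 0 too. That gene was Lgmn, at 310.1, 365 and 396 CPM in biotin-negative libraries, against 242 and 291 CPM in Cd40-null ones (log2 0.41, SE 0.16, adjusted p = 0.431). Its biotin-negative range lies above both Cd40-null libraries, which held for 6.23% of genes, while the opposite held for 4.47%. For Ctsb the log2 fold change was -0.19 (95% interval -0.54 to 0.16), and for Ctss -0.02 (-0.26 to 0.22). For Cst3 the interval was -0.36 to 0.63, which includes a difference as large as that called between the biotin groups. The other 6 genes had log2 fold changes of 0.01 to 0.53, with adjusted p of 0.848 to 0.997. Both comparisons with Cd40-null libraries share those 2 libraries.

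Levels between genes were compared per kilobase of transcript (CPM per kb). The order of genes depends on the transcript lengths used, such as 4743 bases for Ctsb and 1835 for Lgmn. The annotation behind the counts is not given. Cst3 stood first in every group, at 3654 ± 630.1 CPM per kb in biotin-positive, 2388 ± 711 in biotin-negative and 2173 ± 143 in Cd40-null libraries. Ifi30 (869, 976 and 964 CPM per kb) and Ctss (724, 903 and 914 CPM per kb) followed in biotin-positive, biotin-negative and Cd40-null libraries, and their ranges overlap in both biotin groups. Ctsz and Ctsh overlapped each other in all 3 groups, at 463 and 450 CPM per kb in biotin-positive libraries and 393 and 480 CPM per kb in biotin-negative ones. Ctsb had 256 ± 33.9 CPM per kb in biotin-positive libraries, above Lgmn at 184 ± 28.3 though with overlapping ranges. In biotin-negative libraries the order was the other way, with Lgmn at 194 ± 18.2 and Ctsb at 115 ± 15.2 CPM per kb and no overlap. Ctsc (46.4 and 66.2 CPM per kb), Ctsd (33.0 and 40.2) and Ctsl (1.99 and 3.20) closed the list in biotin-positive and biotin-negative libraries.

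The make-up of the protease transcripts was described from the same values. The 7 cysteine proteases (Ctsb, Ctsc, Ctsh, Ctsl, Ctss, Ctsz and Lgmn) summed to 2126 ± 94.8 CPM per kb in biotin-positive libraries, 2152 ± 209 in biotin-negative and 2085 ± 83.8 in Cd40-null libraries. Within that sum, Ctsb made up 12.03% ± 1.55 in biotin-positive libraries, 5.35% ± 0.735 in biotin-negative libraries, and 5.42% and 7.06% in the Cd40-null ones. The share of Ctss was 34.0% ± 2.21 in biotin-positive libraries, 42.0% ± 1.35 in biotin-negative libraries, and 46.8% and 41.1% in Cd40-null libraries. The ratio of the inhibitor to the protease, Cst3 over Ctss per kilobase, was 5.07 ± 0.949 in biotin-positive, 2.63 ± 0.639 in biotin-negative and 2.38 ± 0.0344 in Cd40-null libraries. Its ranges, 4.31 to 6.76 in biotin-positive and 2.08 to 3.66 in biotin-negative libraries, do not overlap. This ratio pairs the inhibitor that rose with the member protease that fell. Cst3 over the sum of all 7 cysteine proteases ran from 1.45 to 2.10 in biotin-positive and 0.846 to 1.48 in biotin-negative libraries. Those ranges overlap. These shares and ratios restate the members' levels and carry no test of their own.

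**Figure D3:**
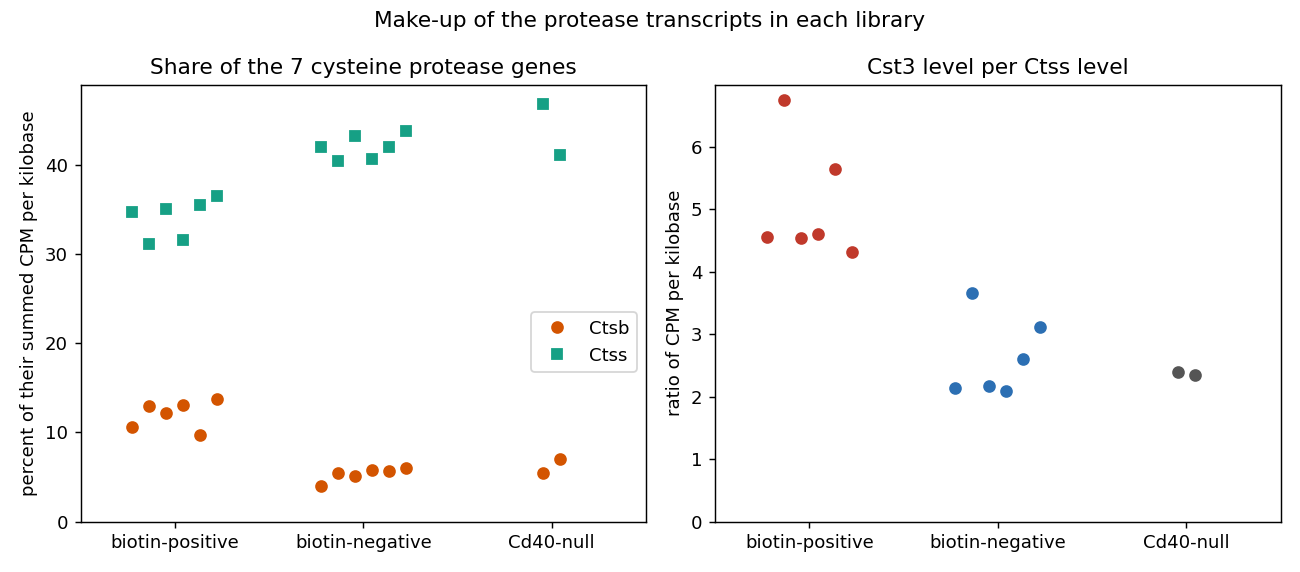
Left, shares of Ctsb and Ctss in the summed CPM per kb of the 7 cysteine proteases (percent); right, the ratio of Cst3 to Ctss per kilobase; points are libraries, grouped as biotin-positive (n = 6), biotin-negative (n = 6) and Cd40-null (n = 2). The Ctsb share lies between 9.69% and 13.7% in biotin-positive libraries, above the 3.98% to 6.05% of biotin-negative ones.

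Profiles across the 14 libraries were compared among 7806 tested genes at a mean of at least 10 CPM. The members and all genes of the related and marker lists, such as Fscn1, were left out of these candidates. Among the candidates, the profiles closest to that of Ctsb were those of Igsf3, Laptm4b, Tapbpl, Parp3 and Hvcn1. Their root mean square differences of centred log2 CPM were 0.13, 0.16, 0.16, 0.18 and 0.18. Laptm4b encodes a lysosomal membrane protein, Tapbpl a peptide editor of MHC class I, and Hvcn1 a proton channel. Igsf3 averaged 289 ± 56.4 CPM in biotin-positive libraries, 136 ± 16.3 CPM in biotin-negative and 146 ± 27.4 CPM in Cd40-null libraries. Among the same candidates, the 5 profiles nearest to Ctss were Skap2, Dstn, Sfr1, Arhgdib and Dpysl2, at 0.09, 0.10, 0.10, 0.11 and 0.11. Within the set, Ctss and Ifi30 were the closest pair (0.14), then Ctsh and Ifi30 (0.15). These distances include differences between the groups, and no test was made of them. They are not scaled for spread, so genes that vary little lie close whether or not they vary together.

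The genes that make, sort, acidify and inhibit these enzymes were described from lists of related genes. Over all tested genes, 3.7% were called higher and 4.05% lower between the biotin groups. Among the other cathepsins, 5 of 7 could be tested, and 1 fell between the biotin groups: Ctsa, the serine carboxypeptidase that protects lysosomal galactosidase. Ctsa had 106 ± 3.89 CPM in biotin-positive libraries, 164 ± 19.6 CPM in biotin-negative libraries and 142 ± 34.8 CPM in Cd40-null libraries (log2 between the biotin groups -0.64, SE 0.11, adjusted p = 0.00135). Ctsf, a cysteine cathepsin, had 13.7 ± 1.89 CPM in biotin-positive libraries and 6.21 ± 3.35 CPM in biotin-negative libraries and missed the threshold (log2 1.14, SE 0.38, adjusted p = 0.0823). Of the 6 further lysosomal peptidases, Cpq, a plasma and lysosomal carboxypeptidase, rose (76.1 ± 16.3 CPM in biotin-positive against 49.7 ± 8.17 CPM in biotin-negative libraries, adjusted p = 0.0225). Prcp, a prolyl carboxypeptidase, fell (341 ± 31.3 CPM in biotin-positive against 439.9 ± 34.5 CPM in biotin-negative libraries, adjusted p = 0.0109). Both kept that direction and passed the threshold in biotin-positive against Cd40-null libraries, with log2 fold changes of 0.96 for Cpq (adjusted p = 0.0409) and -0.72 for Prcp (adjusted p = 0.00224).

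The inhibitor Cstb, an intracellular cystatin, fell to 73.5 ± 12.01 CPM in biotin-positive libraries, against 129 ± 30.7 CPM in biotin-negative libraries, while Cst3 was higher. Its log2 fold change was -0.81 (SE 0.16, adjusted p = 0.00352), and the biotin groups did not overlap. Only 3 of the 8 other cystatins could be tested, and Cst6 and Cst7 averaged under 3 CPM in every group. The list medians of the log2 fold change between the biotin groups were 0.30 for the other cathepsins, 0.15 for the peptidases, -0.81 for the cystatins, 0.08 for sorting and 0.10 for the regulators of lysosomal genes, against -0.03 over all genes. Among 13 genes of the mannose 6-phosphate route and other lysosomal sorting, 2 fell: Psap, the precursor of saposins, and M6pr, a sorting receptor for lysosomal enzymes. Psap fell to 499 ± 37.7 CPM in biotin-positive libraries, against 1034 ± 174 CPM in biotin-negative libraries (adjusted p = 2.35e-05, log2 -1.05, SE 0.11). It also fell against the Cd40-null libraries, which had 1040 and 790.3 CPM (log2 -0.88, SE 0.15, adjusted p = 0.00492). M6pr fell to 326 ± 31.2 CPM in biotin-positive libraries, against 437 ± 43.0 CPM in biotin-negative libraries (adjusted p = 0.00674).

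Of 18 tested subunits and partners of the vacuolar proton pump, 1 rose, the catalytic subunit Atp6v1a (293 ± 32.8 CPM in biotin-positive against 198 ± 35.6 CPM in biotin-negative libraries, adjusted p = 0.00638, log2 0.57). The median log2 fold change of these 18 genes was 0.04, and 3.7% of all tested genes were called higher in this comparison. Of 8 regulators of lysosomal genes, 1 rose, the transcription factor Tfe3, at 115 ± 22.0 CPM in the biotin-positive and 70.0 ± 11.6 CPM in the biotin-negative group (log2 0.72, SE 0.15, adjusted p = 0.00624). Its relative Tfeb had 10.1 ± 3.80 CPM in biotin-positive libraries and 6.60 ± 3.70 CPM in biotin-negative libraries and was not called (adjusted p = 0.523). TFE3 and TFEB bind E-box sites, CACGTG, and the CLEAR form TCACGTG, in promoters of lysosomal genes. An E-box was found in 4 of the 9 member promoters, against 7.15% of all promoters, and the CLEAR core, which overlaps it, in 3 of 9, against 3.77%. Each window is written in gene direction with the E-box in capitals (GRCm38.p6, minus strand), to show which flanks the CLEAR form adds.

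Ctsd E-box at chr7:142388057-142388077: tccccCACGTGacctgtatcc
Ctsd E-box at chr7:142387910-142387935: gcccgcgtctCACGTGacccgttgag
Ctsl E-box at chr13:64370741-64370766: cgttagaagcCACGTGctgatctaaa
Ifi30 E-box at chr8:70766844-70766869: ccaaaaacttCACGTGaccagacatg
Lgmn E-box at chr12:102439126-102439151: gaatgtctgtCACGTGgtccatttta

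Ctsd, Ctsl, Ifi30 and Lgmn, which hold these sites, were called in none of the 3 comparisons.

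The 11 class II pathway genes stand beside the proteases as their partners. None rose and 5 fell between the biotin groups (H2-Aa, H2-Ab1, H2-Eb1, H2-DMa and Cd74), with a median log2 fold change of -1.58 over the list. Cd74, the substrate of cathepsin S, had 920 ± 355 CPM in biotin-positive libraries, 2742 ± 569.8 CPM in biotin-negative libraries and 1575 ± 238 CPM in Cd40-null libraries. It fell by 1.58 on the log2 scale between the biotin groups (SE 0.21, adjusted p = 0.000132), beside -0.32 for Ctss. Monocytes and macrophages express class II genes too, and 13 of their 22 markers fell in the same comparison by edgeR. DESeq2 called 16 of these markers and limma voom 9. Beyond the covariate fit, the part of such cells in the class II falls was not tested. Detected genes as a covariate left 0 genes of the 7 related lists called by edgeR between the biotin groups, and the macrophage marker level left 1, among the lysosomal peptidases. Between biotin-positive and Cd40-null libraries, edgeR made 3 calls over the 7 lists (Cpq, Prcp and Psap), DESeq2 6 and limma voom 7. Between biotin-negative and Cd40-null libraries edgeR, DESeq2 and limma voom called 0 genes of these lists, with 6 under an unadjusted p of 0.05. Of those 6, 5 were among the 11 class II genes. The class II log2 fold changes of biotin-negative over Cd40-null libraries ran from 0.03 to 2.27. Their median was 0.80, against 0.06 over all genes.

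**Figure D4:**
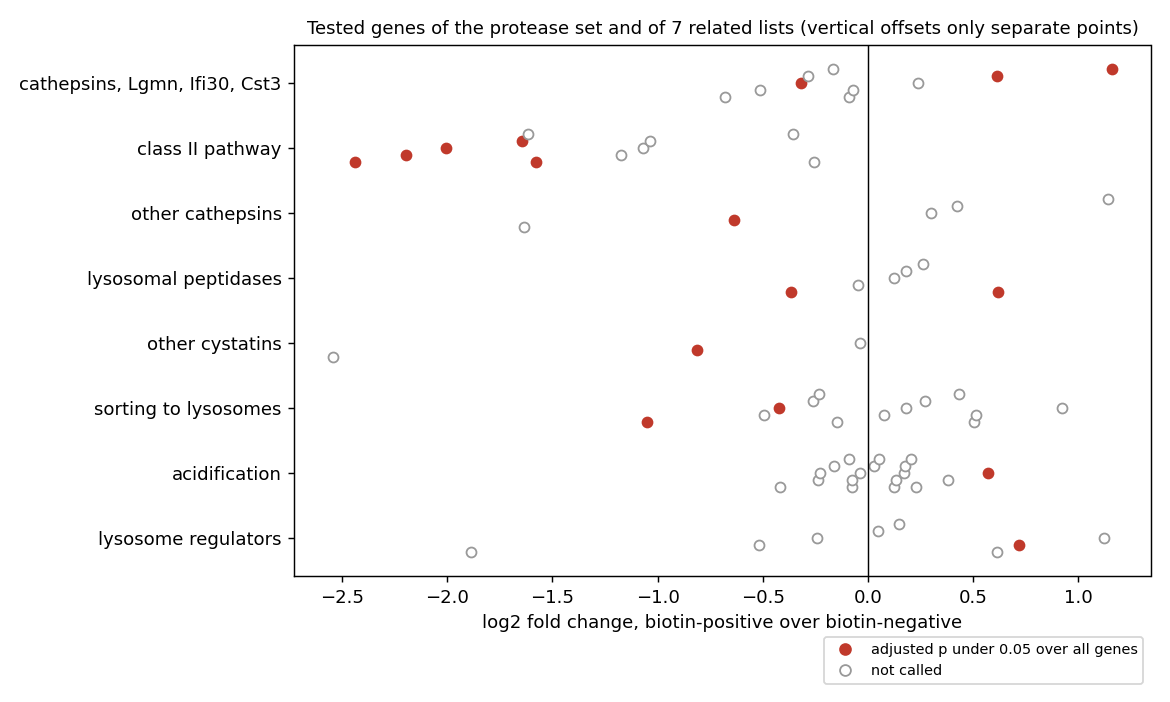
Log2 fold changes of biotin-positive over biotin-negative libraries for each tested gene of the protease set and of 7 related lists; each point is a gene, filled where its adjusted p is under 0.05. The class II list has a median of -1.58, and the 10 members of the protease set have one of -0.13.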

How the data were processed

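Polyadenylated RNA of sorted DCs was sequenced in 14 libraries (38 bp paired-end reads). Per the submitters' processing notes, Bowtie2 2.1.0, RSEM 1.2.8, DESeq2 1.16.0 and the build mm10 were used; the role of each tool and the gene annotation are not given in the sources used here. The authors deposited RSEM expected counts for 23420 symbols, which are whole numbers, and a normalized signal for 10321 genes that equals the deposited count divided by 1 factor per library (relative deviation up to 5.11e-15).

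The expected counts, rounded to whole numbers, were analysed in R 4.3.3 with edgeR 4.0.16: filterByExpr at a min.count of 10 (14217 genes), TMM factors, 1 fit over the 14 libraries with a group factor (glmQLFit, robust), and two-sided glmQLFTest with Benjamini-Hochberg adjustment over all tested genes. Adjusted p values in the text are from this test unless another is named. SEs come from the log2 fold change and its F statistic (their size over root F), and 95% intervals use 11 residual degrees of freedom and are approximate. Log CPM used a prior count of 2. CPM per kb used the shortest principal transcript of GENCODE M21, or the longest transcript for Ifi30. Members and gene lists were chosen with earlier results of these data known. Named genes were the members, Cd40, up to 4 genes of smallest p per list, and the 5 profiles outside the lists nearest to Ctsb and Ctss. Outside that rule, Flt3, Zbtb46, Itgam, Xcr1 (identity and gate of the cells), Rn45s, the overlapping Fdft1, H2-DMa and the markers at 0 were named after their values were seen. Alternatives were DESeq2 1.42.0, limma 3.58.1 (voom, and log2 of the deposited signal plus 1), other scalings and filters, 2-group fits, a replicate block, 2 covariates and leaving out each library. The fits were tested on simulated data.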

Additional observations from a re-analysis of the deposited data

How the results depend on the processing

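Of the 780 alternative values for the 10 genes in 3 comparisons, 20 changed their side of the threshold and none that was called changed sign. Ctsb stayed called between the biotin groups in 25 of 26 alternatives, with log2 fold changes of 0.71 to 1.53. Between biotin-positive and biotin-negative libraries, detected genes per library as a covariate left 11 genes called and 0 of the 10 members, and the macrophage marker level left 90 and 1. Main counts are 1102 genes and 3 members. Ctsc passed the threshold with DESeq2 (adjusted p = 0.0251), limma on the deposited signal (0.0489) and without biotin-negative replicate 6 (0.0257). Leaving out each library gave 839 to 1106 genes and 2 to 4 members.

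Between biotin-positive and Cd40-null libraries (323 genes, 1 member), DESeq2 called 791 genes and 3 members, limma voom 603 and 3, only the 2 groups 2 members, and the macrophage covariate 147 genes. The added members were Ctss (DESeq2 0.0334, voom 0.0319) and Cst3 (0.0168, 0.0393, and 0.0484 with only the 2 groups). Leaving out each library gave 78 to 346 genes (78 without Cd40-null replicate 1, 95 without replicate 2) and 0 to 2 members, so the count of calls rests on both Cd40-null libraries. Cst3 was called without biotin-negative replicate 2 (0.0327). Between biotin-negative and Cd40-null libraries (45 genes, 0 members), DESeq2 called 273 genes, limma on the deposited signal 83, only the 2 groups 29, and the detected genes covariate 6. Leaving out each library gave 12 to 54 genes and 0 members.

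The labels do not state whether replicate numbers pair the libraries. Same-numbered biotin libraries showed no shared deviation: their correlations ran from -0.023 to 0.013, and 1 of 6 libraries matched its own number best. That check cannot show whether they came from the same mice. With the replicate block, calls were 891, 129 and 19 genes; the block gave adjusted p values of 0.0539 for Ctss and 0.0447 for Ctsc between the biotin groups. The causes of these changes were not tested.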
